A study of Zea mays with 27 samples.

Results

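The cytosolic glyceraldehyde-3-phosphate dehydrogenase (GAPDH) genes gpc1 (LOC542367), gpc2 (LOC542718) and gpc3 (LOC542333) and the enolase genes eno1 (LOC732811) and eno2 (LOC542316) of maize were followed over 27 dual-colour cDNA arrays of adult leaf RNA. Their members were all spots whose gene symbol in the probe annotation of the array is that of 1 of these 5 genes. This rule uses no measured value. It gave 84 of 16200 spots, which stand for 28 of 5400 cDNAs, since each cDNA was spotted 3 times in a row. The 28 cDNAs are 10 of gpc1, 7 of gpc2, 2 of gpc3, 5 of eno1 and 4 of eno2, and 5 of the 213 annotated genes. All 28 had enough values to be tested, and 27 had a value on every array. The exception was a gpc3 cDNA without a value on b,pl PE replicate 2, an array that its fits leave out. A cDNA is named below by its gene and the number of its first spot.

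Both enzymes belong to glycolysis, the pathway that breaks sugar down to pyruvate in the cytosol. GAPDH oxidises glyceraldehyde-3-phosphate and stores the energy as NADH and a high-energy phosphate. Enolase acts further down and removes water from phosphoglycerate to give phosphoenolpyruvate, the last intermediate before pyruvate. In maize, gpc3 and eno1 are known as genes induced when roots lack oxygen, while gpc1, gpc2 and eno2 are not known for that response. The 3 gpc genes code for very similar proteins, so a cDNA of one can also bind transcripts of another, and the values of single gpc cDNAs are uncertain in that respect.

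Plants of 4 genotypes were compared. B and Pl are regulators of anthocyanin synthesis, and the lines were labelled b,pl and B,Pl. The third line was labelled bz2, after a gene whose product, a glutathione S-transferase, acts in the transport of anthocyanin into the vacuole. The labels describe the fourth line only as mutator. All 4 genotypes were sampled under plastic filters labelled CA, PE and LE, abbreviations that the labels do not spell out, and in a greenhouse after 8 h of supplementary UV-B. Leaves of b,pl and B,Pl were also taken 1 day after the PE filter was removed, and b,pl leaves in a greenhouse without UV-B. Groups had between 1 and 3 arrays. Single arrays stand for every mutator group, for all bz2 groups except LE, for LE and greenhouse UV-B of B,Pl, and for b,pl grown without UV-B. PE in B,Pl had 3 arrays, and 2 were made for each remaining group, with b,pl under CA hybridised only on the other channel. The RNA on the other channel was that of b,pl under CA on 20 arrays. LE and PE arrays of bz2 and mutator, the LE array of B,Pl and B,Pl PE replicate 1 carried CA leaves of the same genotype instead.

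Every value is a log2 ratio between the channels of an array, centred on the median of that array and signed by dye: the sign was kept where the group was in Cy5 and reversed where it was in Cy3. The numerator channel is not given in the sources used here. If the ratios were formed with Cy5 as numerator, a positive value means more RNA in the first-named group. With Cy3 as numerator it means less. The deposited values may also already be group over other channel on every array, so that no sign should be reversed. Read that way, 41 of 105 gene medians changed sign. On 4 arrays the dye in the title conflicts with that in a source name, and the titles were followed. This concerns the CA array of bz2, the CA array of mutator, replicate 2 of PE in B,Pl and replicate 2 of PE removed in b,pl. The direction of 2 further arrays relative to each other is unsettled. In b,pl, replicate 1 of PE removed and replicate 2 of greenhouse UV-B were both labelled with Cy3, yet their Pearson correlation was −0.40 over all cDNAs and −0.46 over the 28 member cDNAs. Comparisons that use them are given with the sign of that array turned as well. Replicates 2 and 3 of PE in B,Pl, a dye swap, had the same sign for 24.8% of all cDNAs after signing by dye. Their direction relative to each other is therefore unsettled too. How PE minus CA in B,Pl changes with either of them turned is given below. The arrays held values for 14715 to 16122 spots. The median SD among the 3 spots of a cDNA was 0.0366 over all cDNAs and 0.0298 over the members. Nothing in the labels ties the arrays of a group to separate plants. The p-values thus measure array-to-array spread only, and that spread may be technical. Comparisons share arrays and the b,pl CA RNA, so their values are not independent, and a group with 1 array takes its error from the spread in the other groups. In leaf RNA, fewer cells of a type and less RNA per cell cannot be told apart.

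On average over the 4 genotypes, LE minus CA was positive for 5 of 5 eno1 cDNAs, with a median of 0.48, and for 0 of 4 eno2 cDNAs, with a median of −0.14. Among the GAPDH genes, 2 of 2 gpc3 cDNAs (median 0.41), 6 of 7 gpc2 cDNAs (median 0.17) and 7 of 10 gpc1 cDNAs (median 0.08) were positive. The median of all cDNAs was −0.00134, and 49.8% of them were positive. The test was passed by 3 cDNAs, eno1 cDNA 13891, eno1 cDNA 4975 and gpc2 cDNA 3640.

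For eno1 cDNA 13891 the arrays with an LE group read −0.17 and 0.46 in b,pl, 1.60 in B,Pl, 0.50 and 1.29 in bz2 and 0.90 in mutator. All but b,pl LE replicate 1 were positive. Fitted over the 4 genotypes, LE minus CA was 0.95 (SE 0.14, limma adjusted p = 0.0179). The same 6 arrays read −0.25, 0.55, 0.70, 0.75, 1.11 and 0.75 for eno1 cDNA 4975, with b,pl LE replicate 1 again the only negative value. Its difference was 0.71 (SE 0.11, limma adjusted p = 0.0205). For gpc2 cDNA 3640 the values were 0.09, 0.88, 0.48, 0.59, 0.96 and 0.65, positive on every LE array. The fit gave 0.67 (SE 0.12, limma adjusted p = 0.0286). These were 3 of 28 member cDNAs, against 69 of 5361 over all cDNAs (1.29%). At an unadjusted p under 0.05 there were 9 of 28 members, 32.1%, against 17.1% of all cDNAs.

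The other 25 members did not pass. Closest was gpc3 cDNA 6715 at 0.54 (SE 0.13, limma adjusted p = 0.0749), followed by eno1 cDNA 12793 at 0.48 and gpc1 cDNA 10447 at 0.40. The remaining eno1 cDNAs, 12382 and 8485, stood at 0.43 and 0.22. Among the eno2 cDNAs the lowest value was −0.30 for cDNA 436, with an unadjusted p of 0.0502. All 3 calls were lost without b,pl LE replicate 2, where the limma adjusted p lay between 0.104 and 0.124, and without bz2 LE replicate 2, where it lay between 0.0524 and 0.105. The only LE arrays of B,Pl and mutator could not be left out, so dependence of the calls on them was not examined. The call of gpc2 cDNA 3640 alone was also lost without bz2 LE replicate 1, B,Pl CA replicate 1 or either b,pl greenhouse UV-B array, with a limma adjusted p between 0.0508 and 0.0568, and without a dye term (0.0566). With b,pl greenhouse UV-B replicate 2 turned, an array of unsettled direction, gpc2 cDNA 3640 (0.0671) and eno1 cDNA 4975 (0.0818) did not pass. With scaled arrays gpc3 cDNA 6715 passed as well, at 0.52 (limma adjusted p = 0.0313). All 3 were lost when arrays were not centred, when the values were read as group over other channel and when the 3 arrays with most missing values were left out. The 3 estimates stayed positive in each of the 32 alternatives, but as group over other channel they were 0.36 for eno1 cDNA 13891 and 0.10 for each of eno1 cDNA 4975 and gpc2 cDNA 3640, and the eno1 median was 0.10.

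**Figure D1:**
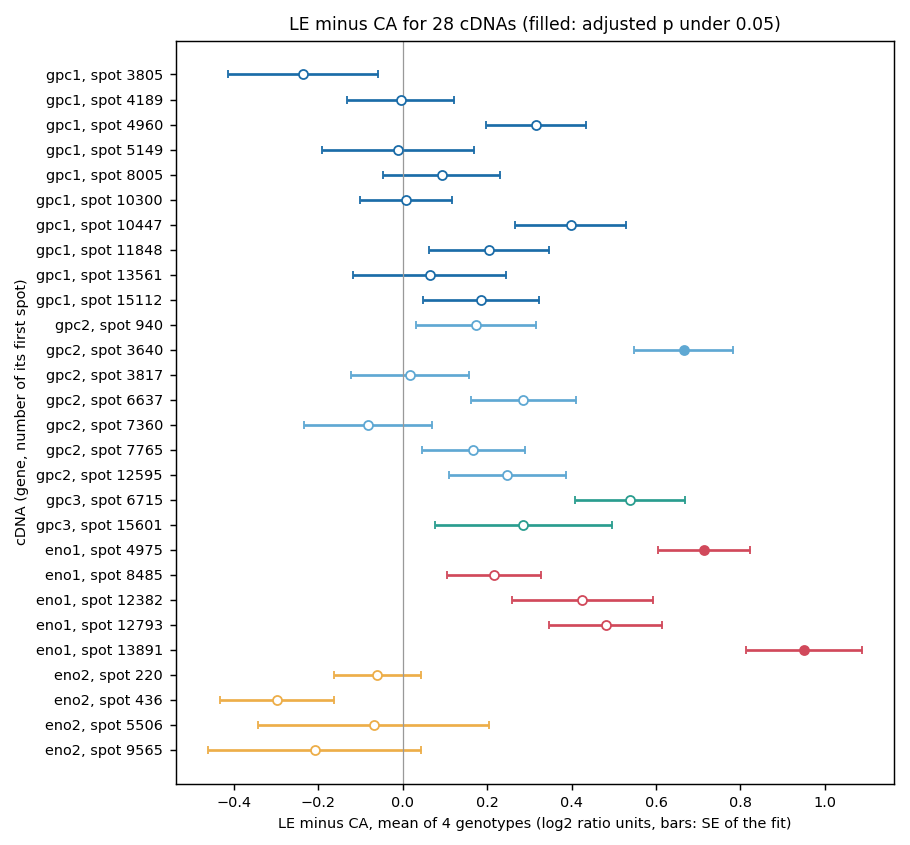
Fitted LE minus CA difference, averaged over the 4 genotypes, for each of the 28 cDNAs (x axis, log2 ratio units, bars are the SE of the fit, filled points have a limma adjusted p under 0.05). The eno1 cDNAs run from 0.22 to 0.95, all 4 eno2 cDNAs are below 0, and the filled points are eno1 cDNAs 13891 and 4975 and gpc2 cDNA 3640.

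Within single genotypes, 1 member passed, eno1 cDNA 4975 in bz2. Its LE minus CA difference there was 0.93 (SE 0.17, limma adjusted p = 0.0467), with both bz2 arrays positive. That is 1 of 28 members, against 30 of 5400 cDNAs (0.556%). At an unadjusted p under 0.05 there were 5 members, 17.9%, beside 14.3% of all cDNAs. This call rests on the whole set of arrays: with any 1 of the 17 arrays that could be left out, the limma adjusted p rose to between 0.0510 and 0.457. Turning b,pl greenhouse UV-B replicate 2 gave 0.161. In bz2 the gene medians were 0.54 for eno1, −0.41 for eno2, 0.19 for gpc1, 0.01 for gpc2 and 0.05 for gpc3. Without centring, the last 3 of these turned negative, and that of gpc2 did so with scaled arrays too.

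In B,Pl, 28 of 28 members were positive for LE minus CA, with LE measured on 1 array. The medians were 0.56 for eno1, 0.10 for eno2, 0.14 for gpc1, 0.36 for gpc2 and 0.58 for gpc3, of which those of eno2 and gpc1 turned negative without centring. The smallest p was that of eno1 cDNA 13891 at 1.73 (SE 0.31, limma adjusted p = 0.0787), which passed with scaled arrays and with either b,pl PE removed array turned. In this comparison 0 members passed, against 13 of 5370 cDNAs (0.242%), and 3 members had an unadjusted p under 0.05, beside 4.36% of all cDNAs. The share of all cDNAs that were positive was 49.3%.

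In mutator, also on 1 array, eno1 had its highest LE median, 0.76, and 5 of 5 cDNAs were positive. The other medians were −0.31 for eno2, 0.12 for gpc1, 0.29 for gpc2 and 0.37 for gpc3. The smallest p belonged to eno1 cDNA 4975 at 0.91 (SE 0.25, limma adjusted p = 0.531). By limma’s test 0 members passed, against 3 of 5390 cDNAs (0.0557%), and 4 had an unadjusted p under 0.05, beside 5.97% of all cDNAs.

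In b,pl, gpc3 had the highest LE median, 0.65, and both of its cDNAs were positive on both arrays. The medians were 0.14 for eno1, −0.20 for eno2, −0.02 for gpc1 and 0.16 for gpc2, and those of eno2 and gpc1 turned positive without centring. For eno1 the arrays disagreed: its median was −0.17 on replicate 1 and 0.46 on replicate 2. The smallest p was that of gpc3 cDNA 6715 at 0.69 (SE 0.20, limma adjusted p = 0.597). With limma 0 members passed, against 0 of 5400 cDNAs (0%), while 3 members, 10.7%, had an unadjusted p under 0.05, beside 6.56% of all cDNAs.

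Whether the genotypes differed in LE minus CA was tested with limma's F test. Of the members 0 passed, against 13 of 5361 cDNAs (0.242%), and 3 had an unadjusted p under 0.05, beside 4.05% of all cDNAs. The smallest was that of eno1 cDNA 13891, with an adjusted p of 0.73. The different medians of eno1 in the 4 genotypes are therefore not shown to differ.

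The values of each gene by array follow, first for the GAPDH genes. The gpc1 medians of 10 cDNAs ran from −0.65 on B,Pl PE replicate 3 to 0.42 on bz2 LE replicate 2 and were positive on 10 of 27 arrays. Under LE they were −0.22 and 0.19 in b,pl, 0.14 in B,Pl, −0.04 and 0.42 in bz2 and 0.12 in mutator. Under PE they were −0.28 and −0.20 in b,pl, 0.23, 0.03 and −0.65 in B,Pl, −0.12 in bz2 and 0.06 in mutator. The first B,Pl PE value is against B,Pl CA and the other 2 are against b,pl CA, so the 3 are not replicates of 1 ratio. Replicates against the same RNA lay far apart in some groups, such as B,Pl PE at 0.03 and −0.65. In others, such as b,pl PE, they lay close together. One day after the PE filter was removed, b,pl arrays read 0.19 and −0.17 and B,Pl arrays −0.34 and −0.22. In the greenhouse the medians were −0.14 without UV-B and, with UV-B, −0.60 and −0.22 in b,pl, −0.28 in B,Pl, 0.03 in bz2 and 0.22 in mutator. Under CA they were −0.37 and −0.37 in B,Pl, −0.04 in bz2 and −0.24 in mutator. B,Pl under CA was the group where both arrays gave gpc1 the same median, below 0. Over all cDNAs, however, these arrays, a dye swap, had the same sign for 50.0%.

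The gpc2 medians of 7 cDNAs ran from −0.53 on b,pl greenhouse UV-B replicate 1 to 0.47 on b,pl LE replicate 2 and were positive on 8 of 27 arrays. LE arrays read −0.03 and 0.47 in b,pl, 0.33 in B,Pl, −0.28 and 0.31 in bz2 and 0.20 in mutator. PE arrays read −0.07 and 0.03 in b,pl, −0.31, −0.05 and −0.34 in B,Pl, −0.08 in bz2 and −0.06 in mutator. Thus 6 of these 7 PE medians were negative, while 4 of the 6 LE medians were positive. However, B,Pl PE replicates 2 and 3 were read against b,pl CA, so their values include the genotype difference under CA. Fitted against CA of the same genotype and averaged, PE gave gpc2 a median of 0.02, with 4 of 7 cDNAs positive. After removal of the PE filter the medians were 0.11 and −0.19 in b,pl and −0.10 and −0.08 in B,Pl. In the greenhouse they were −0.20 without UV-B and, with UV-B, −0.53 and 0.04 in b,pl, −0.51 in B,Pl, −0.11 in bz2 and 0.11 in mutator. Under CA they were −0.23 and −0.08 in B,Pl, −0.00120 in bz2 and −0.25 in mutator. On most arrays the 7 cDNAs lay on both sides of 0.

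The gpc3 medians rest on 2 cDNAs, 6715 and 15601, and ran from −0.60 on B,Pl PE replicate 3 to 0.85 in b,pl without UV-B, with 16 of 27 positive. LE arrays read 0.51 and 0.79 in b,pl, 0.55 in B,Pl, −0.02 and 0.12 in bz2 and 0.33 in mutator. PE arrays read −0.09 and 0.08 in b,pl, −0.08, −0.16 and −0.60 in B,Pl, −0.13 in bz2 and −0.42 in mutator. The b,pl value of 0.08 is that of cDNA 6715 alone. LE medians of b,pl, B,Pl and mutator lay above every PE median, and those of bz2 overlapped with them. Of these PE arrays, B,Pl replicates 2 and 3 had b,pl CA on the other channel, while all LE arrays had CA of their own genotype. After PE removal the medians were 0.09 and −0.11 in b,pl and −0.40 and −0.05 in B,Pl. Every greenhouse array was positive, at 0.85 without UV-B and, with UV-B, 0.13 and 0.36 in b,pl, 0.18 in B,Pl, 0.61 in bz2 and 0.62 in mutator. Under CA the medians were −0.13 and 0.66 in B,Pl, 0.39 in bz2 and 0.35 in mutator, so that the 2 arrays of B,Pl had opposite signs.

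For the enolase gene eno1 the medians of 5 cDNAs ran from −0.43 on B,Pl PE removed replicate 1 to 0.86 in b,pl without UV-B and were positive on 18 of 27 arrays. LE arrays read −0.17 and 0.46 in b,pl, 0.46 in B,Pl, 0.41 and 0.78 in bz2 and 0.67 in mutator. PE arrays read 0.00422 and 0.21 in b,pl, −0.01, 0.04 and 0.15 in B,Pl, −0.02 in bz2 and −0.30 in mutator. All LE medians other than that of b,pl LE replicate 1 lay above all PE medians. After PE removal the medians were −0.19 and 0.02 in b,pl and −0.43 and −0.17 in B,Pl. All 6 greenhouse medians were positive, at 0.86 without UV-B and, with UV-B, 0.08 and 0.63 in b,pl, 0.59 in B,Pl, 0.04 in bz2 and 0.47 in mutator. Under CA they were 0.18 and 0.45 in B,Pl, −0.07 in bz2 and −0.00265 in mutator. On 5 of the 6 LE arrays at least 4 of the 5 cDNAs were positive, and on the remaining one, b,pl LE replicate 1, none was.

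The eno2 medians of 4 cDNAs ran from −0.80 in B,Pl greenhouse UV-B to 0.71 on B,Pl CA replicate 2 and were positive on 10 of 27 arrays. LE arrays read −0.34 and −0.07 in b,pl, 0.13 in B,Pl, −0.27 and −0.48 in bz2 and −0.30 in mutator. PE arrays read 0.25 and −0.45 in b,pl, 0.31, 0.08 and −0.00239 in B,Pl, −0.16 in bz2 and −0.20 in mutator. Thus 5 of the 6 LE medians of eno2 were negative, where 5 of the 6 of eno1 were positive. After PE removal the medians were 0.18 and 0.30 in b,pl and 0.16 and −0.02 in B,Pl. In the greenhouse they were −0.75 without UV-B and, with UV-B, −0.24 and 0.05 in b,pl, −0.80 in B,Pl, 0.27 in bz2 and −0.33 in mutator. Under CA they were −0.18 and 0.71 in B,Pl, −0.08 in bz2 and −0.47 in mutator. The B,Pl CA arrays, a dye swap, had opposite signs.

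**Figure D2:**
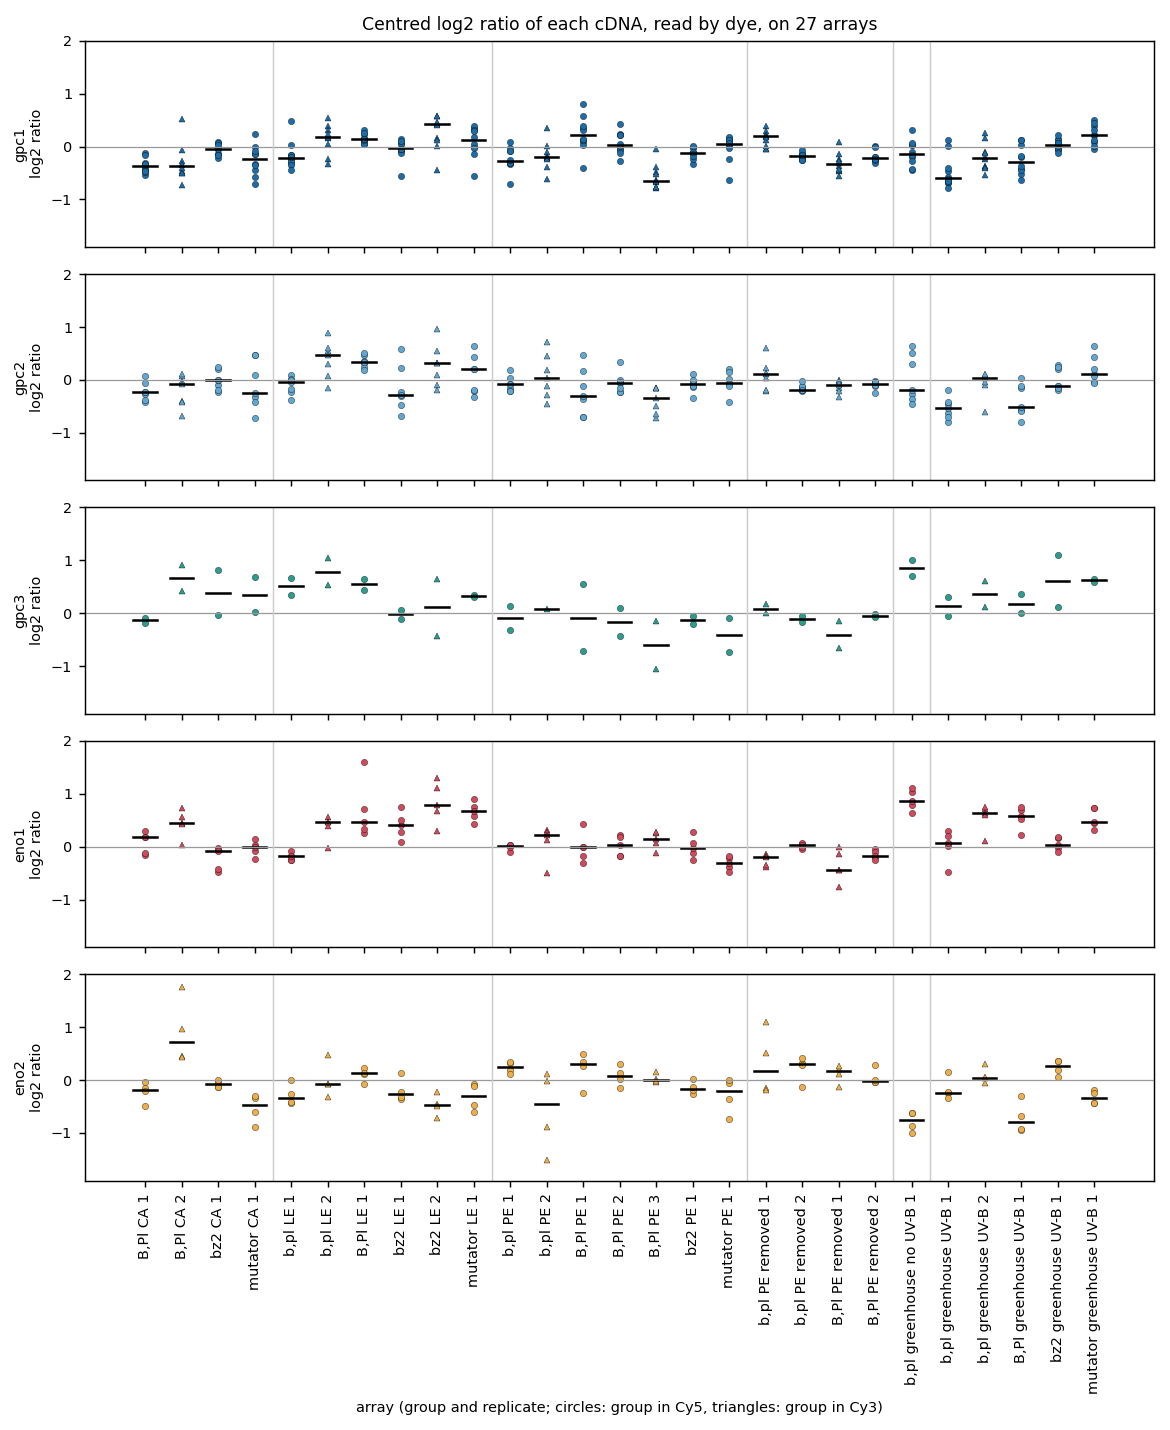
Centred log2 ratio, read by dye, of every cDNA (points) and the gene median (black bar) on each of the 27 arrays (x axis, ordered by treatment, then genotype), with 1 panel per gene. Circles are groups labelled with Cy5 and triangles groups labelled with Cy3. The eno1 median lies above 0 on 5 of 6 LE arrays, with single cDNAs from 0.27 to 1.60 on that of B,Pl, and eno2 lies at −0.75 where eno1 lies at 0.86, in b,pl without UV-B.

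The medians of eno1 and eno2 had opposite signs on 14 of 27 arrays. All eno1 cDNAs lay above all eno2 cDNAs on 7 arrays, which were B,Pl LE, bz2 LE replicate 2, mutator LE, mutator CA, b,pl without UV-B, and the UV-B arrays of B,Pl and mutator. The reverse held on 2 arrays, replicate 1 of b,pl PE and replicate 2 of PE removed in B,Pl, and on the other 18 the cDNAs overlapped. The cDNAs of gpc3 lay above all those of eno2 on 8 arrays and below them on 2. Between gpc1 and gpc2 no array separated the cDNAs. These counts compare ratios of different cDNAs on an array, not levels of the transcripts. Full separation is easier for genes with fewer cDNAs, and its share among other genes of the array was not computed.

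**Figure D3:**
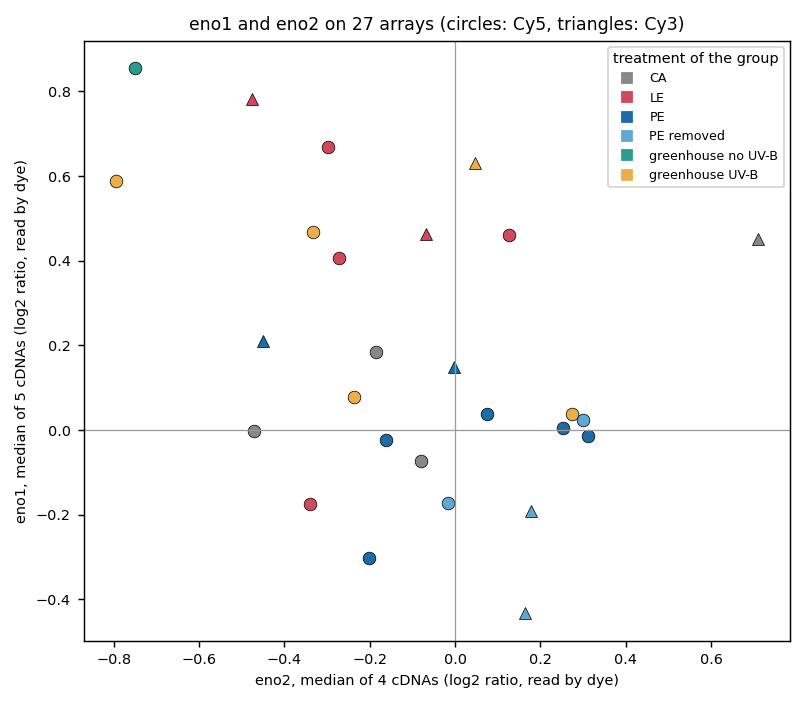
Median log2 ratio, read by dye, of 4 eno2 cDNAs (x axis) and 5 eno1 cDNAs (y axis) on each of the 27 arrays, coloured by treatment (circles Cy5, triangles Cy3). The array at −0.75 for eno2 and 0.86 for eno1 is b,pl in the greenhouse without UV-B, and the triangle at 0.71 and 0.45 is B,Pl CA replicate 2.

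PE minus CA was small for all 5 genes on average over the genotypes. The medians were −0.00171 for eno1, −0.15 for eno2, −0.01 for gpc1, 0.02 for gpc2 and −0.22 for gpc3, and those of eno2 and gpc3 were negative for every cDNA. The sign of gpc1 changed with scaled arrays and that of gpc2 without centring. With B,Pl PE replicate 3 turned, the medians of gpc2 and gpc3 were 0.10 and −0.07. With limma 0 of 28 members passed, against 0 of 5375 cDNAs (0%), and 1 member had an unadjusted p under 0.05, beside 11.4% of all cDNAs. That member was gpc3 cDNA 6715 at −0.32 (SE 0.13, limma adjusted p = 0.422). The difference of the LE and PE results was not tested.

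By genotype, the lowest PE medians were those of gpc3 in mutator, −0.38, and in B,Pl, −0.34. In b,pl the medians were 0.12 for eno1, −0.11 for eno2, −0.23 for gpc1, 0.01 for gpc2 and −0.05 for gpc3. Those of eno1 and gpc2 turned negative without centring. With b,pl PE replicate 2 turned, the medians of gpc1 and eno2 were 0.02 and 0.45. In B,Pl the medians were −0.12 for eno1, −0.01 for eno2, 0.20 for gpc1 and −0.05 for gpc2. With B,Pl PE replicate 2 turned they were −0.20, −0.09, 0.12 and −0.10, with gpc3 at −0.28. With B,Pl PE replicate 3 turned, gpc1 stood at 0.55 and gpc2 at 0.11, gpc3 turned positive and eno1 stayed negative. The sign of gpc1 changed without centring and that of eno2 with scaled arrays. In bz2 they were 0.07 for eno1, −0.11 for eno2, −0.09 for gpc1, −0.000848 for gpc2 and −0.09 for gpc3, and eno1 changed sign without centring. In mutator eno1 stood at −0.17, eno2 at −0.20, gpc1 at 0.07 and gpc2 at 0.06, of which the last 2 turned negative without centring.

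None of the 4 genotypes gave a member that passed for PE with limma. There were 0 calls among 5397 cDNAs in b,pl (0%), 0 among 5400 in B,Pl (0%), 0 among 5378 in bz2 (0%) and 0 among 5399 in mutator (0%). At an unadjusted p under 0.05 stood 0, 1, 0 and 1 members, beside 10.6%, 9.04%, 1.77% and 2.94% of all cDNAs. The members with the smallest p were gpc2 cDNA 12595 in b,pl at −0.33 (SE 0.22), gpc3 cDNA 6715 in B,Pl at −0.61 (SE 0.21), eno1 cDNA 8485 in bz2 at 0.32 (SE 0.25) and eno2 cDNA 220 in mutator at −0.65 (SE 0.24). Their limma adjusted p lay between 0.53 and 1. The F test for a genotype difference in PE minus CA gave 0 members, against 0 of 5375 cDNAs (0%), with 0 members at an unadjusted p under 0.05 and 1.25% of all cDNAs.

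One day after the PE filter was removed, eno1 was the lowest of the 5 genes in B,Pl, with a median of −0.58 and 4 of 5 cDNAs negative. The other B,Pl medians were −0.19 for eno2, 0.21 for gpc1, 0.04 for gpc2 and −0.34 for gpc3, and that of gpc2 turned negative without centring. The smallest p belonged to eno1 cDNA 13891 at −0.66 (SE 0.29, limma adjusted p = 0.707). Here limma called 0 members, against 0 of 5399 cDNAs (0%), and 1 had an unadjusted p under 0.05, beside 6.89% of all cDNAs. The B,Pl CA arrays also enter this difference, and eno1 read 0.18 and 0.45 there.

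In b,pl after PE removal, eno2 was the gene farthest from 0, with a median of 0.23 and 3 of 4 cDNAs positive. The others stood at −0.11 for eno1, 0.00305 for gpc1, −0.02 for gpc2 and −0.01 for gpc3, and gpc1 turned negative without centring and with scaled arrays. The direction of both arrays of this group is in doubt. With replicate 1 turned the medians were 0.29 for eno1, 0.04 for eno2, −0.19 for gpc1, 0.01 for gpc2 and −0.07 for gpc3, and with replicate 2 turned they were the same with opposite signs. The smallest p belonged to eno2 cDNA 436, which read 1.10 and 0.41 on the 2 arrays and was fitted at 0.75 (SE 0.21, limma adjusted p = 1). By limma’s test 0 members passed, against 0 of 5399 cDNAs (0%), and 2 had an unadjusted p under 0.05, beside 1.02% of all cDNAs.

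Among the 21 comparisons, the gene medians of eno1 and eno2 lay farthest from 0 between b,pl in the greenhouse without UV-B and b,pl under CA, measured on 1 array. All 5 eno1 cDNAs were positive, with a median of 0.95, and all 4 eno2 cDNAs were negative, with a median of −0.75. The gpc3 cDNAs were both positive, with a median of 0.89, and gpc1 and gpc2 stood at −0.12 and −0.07. The signs of all 5 medians held without centring and with scaled arrays. The smallest p was that of eno1 cDNA 4975 at 1.18 (SE 0.25, limma adjusted p = 0.229). With limma 0 members passed, against 0 of 5393 cDNAs (0%). At an unadjusted p under 0.05 there were 9 of 28 members, 32.1%, beside 7.12% of all cDNAs.

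After 8 h of UV-B in the greenhouse, the b,pl medians against CA were 0.39 for eno1, −0.05 for eno2, −0.38 for gpc1, −0.23 for gpc2 and 0.24 for gpc3. All 10 gpc1 and all 7 gpc2 cDNAs were negative in the fit. On replicate 2 alone 4 of 7 gpc2 cDNAs were positive, and without replicate 1 the gpc2 median was −0.02. With replicate 2 turned, the medians were −0.23 for eno1, −0.10 for eno2, −0.10 for gpc1, −0.17 for gpc2 and −0.09 for gpc3, and eno2 turned positive without centring. The smallest p was that of gpc2 cDNA 6637, which read −0.70 and −0.60 on the 2 arrays and was fitted at −0.65 (SE 0.19, limma adjusted p = 0.209). Its sign was positive, 0.08, with replicate 2 turned. Here limma called 0 members, against 0 of 5399 cDNAs (0%), and 3 had an unadjusted p under 0.05, beside 13.0% of all cDNAs.

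Set against the greenhouse without UV-B, leaves after UV-B gave medians of −0.68 for eno1, 0.72 for eno2, −0.29 for gpc1, −0.37 for gpc2 and −0.65 for gpc3. All 5 eno1 cDNAs were negative and all 4 eno2 cDNAs positive. With b,pl greenhouse UV-B replicate 2 turned, the medians were −1.11 for eno1, 0.65 for eno2, −0.01 for gpc1, −0.12 for gpc2 and −0.97 for gpc3. This comparison shares its array without UV-B with the preceding contrast against CA, so the mirrored signs are not separate observations. The smallest p was that of gpc2 cDNA 6637 at −1.28 (SE 0.34, limma adjusted p = 0.712). By limma’s test 0 members passed, against 0 of 5392 cDNAs (0%), and 6 members, 21.4%, had an unadjusted p under 0.05, beside 6.03% of all cDNAs.

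Under greenhouse UV-B the genotypes were compared with b,pl on 1 array each. In mutator, gpc1 had its highest median of the 21 comparisons, 0.61, with 10 of 10 cDNAs positive, and 7 of 7 gpc2 cDNAs were positive with a median of 0.40. The medians of gpc3, eno1 and eno2 were 0.42, 0.38 and −0.23. With b,pl UV-B replicate 2 turned they were 0.48 for gpc1, 0.43 for gpc2, 0.74 for gpc3, 0.76 for eno1 and −0.21 for eno2. The smallest p was that of gpc2 cDNA 6637 at 1.20 (SE 0.34, limma adjusted p = 0.774). With limma 0 members passed, against 0 of 5387 cDNAs (0%), and 5 had an unadjusted p under 0.05, beside 5.88% of all cDNAs.

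For bz2 in UV-B light the medians were 0.46 for gpc1, 0.44 for gpc2, 0.41 for gpc3, −0.19 for eno1 and 0.30 for eno2. Turning the same b,pl array gave 0.18, 0.18, 0.73, 0.36 and 0.46, so that the sign of eno1 is not settled. In B,Pl the medians were 0.13 for gpc1, 0.04 for gpc2, −0.02 for gpc3, 0.34 for eno1 and −0.71 for eno2, and with the array turned they were −0.06, −0.19, 0.30, 0.89 and −0.69. For eno2 all 4 cDNAs were negative in B,Pl. The smallest p belonged to gpc2 cDNA 940 in bz2 at 0.93 (SE 0.40) and to eno2 cDNA 220 in B,Pl at −0.69 (SE 0.29), with limma adjusted p of 0.999 and 0.849. In either, limma called 0 members, against 2 of 5393 cDNAs in bz2 (0.0371%) and 1 of 5379 in B,Pl (0.0186%), and 1 member in each had an unadjusted p under 0.05, beside 4.86% and 5.65% of all cDNAs.

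Under CA, gpc1 was lower on the signed scale in B,Pl than in b,pl, with a median of −0.44 and 9 of 10 cDNAs negative. Of the gpc1 cDNAs, 5 had an unadjusted p under 0.05, and gpc1 cDNA 4960 had the smallest, at −0.45 (SE 0.16, limma adjusted p = 0.463). The medians of gpc2, gpc3, eno1 and eno2 were −0.11, 0.11, 0.27 and 0.21, of which gpc2 turned positive without centring and gpc3 negative with scaled arrays. By limma’s test 0 members passed, against 0 of 5400 cDNAs (0%), and 6 of 28 members had an unadjusted p under 0.05, 21.4% beside 10.5% of all cDNAs.

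For bz2 and mutator under CA the only array has conflicting dye labels, so each value may have the opposite sign. In bz2 the medians were −0.01 for gpc1, 0.10 for gpc2, 0.43 for gpc3, 0.01 for eno1 and −0.01 for eno2. The sign changed without centring for gpc2 and eno1, and with scaled arrays for gpc1 and eno1. In mutator they were −0.21 for gpc1, −0.14 for gpc2, 0.39 for gpc3, 0.13 for eno1 and −0.41 for eno2. The smallest p belonged to eno1 cDNA 8485 in bz2 at −0.37 (SE 0.25) and to gpc3 cDNA 6715 in mutator at 0.88 (SE 0.30), with limma adjusted p of 1 and 0.956. With limma 0 members passed in either, against 0 of 5399 cDNAs (0%) and 0 of 5383 (0%), and 0 and 2 members had an unadjusted p under 0.05, beside 0.519% and 4.68% of all cDNAs.

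**Figure D4:**
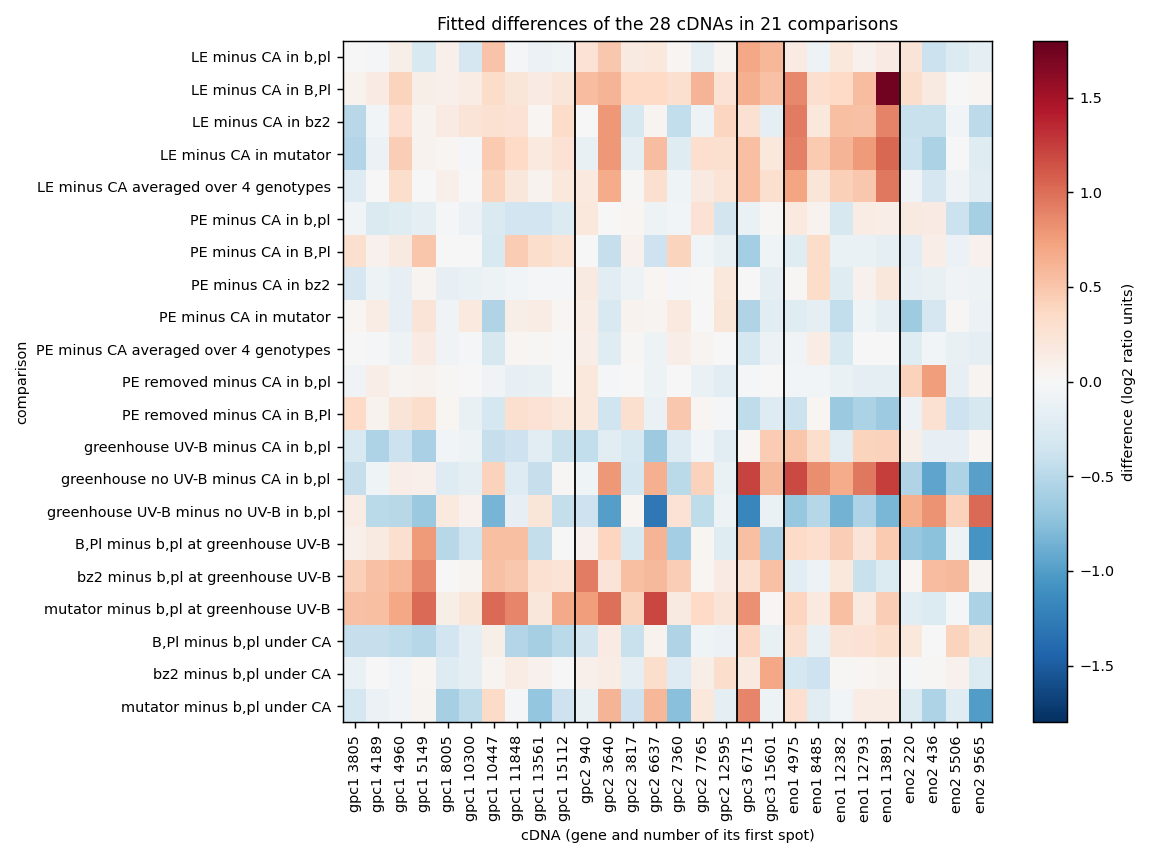
Fitted difference of each of the 28 cDNAs (columns, grouped by gene) in each of the 21 comparisons (rows), as colour in log2 ratio units. The eno1 columns are positive in the LE rows of bz2, B,Pl and mutator and in the row without UV-B, where the eno2 columns are negative, and gpc1 columns other than cDNA 10447 are negative in the row of B,Pl minus b,pl CA leaves.

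Fitted relative to b,pl under CA, the 19 groups can be put in order for each gene. For eno1 the highest were b,pl without UV-B at 0.95 (SE 0.30), mutator LE at 0.89 (SE 0.44) and B,Pl LE at 0.82 (SE 0.35), and the lowest was B,Pl PE removed at −0.31 (SE 0.21). The SE is the median over the cDNAs of the gene. For gpc3 the highest groups were b,pl without UV-B at 0.89, mutator LE at 0.76 and B,Pl LE at 0.70, and the lowest were B,Pl PE and B,Pl PE removed at −0.23 each. For eno2 the order began with B,Pl LE at 0.33 and bz2 greenhouse UV-B at 0.27 and ended with mutator PE at −0.88 and mutator LE at −0.89. The highest group of gpc1 and of gpc2 was mutator under greenhouse UV-B, at 0.27 and 0.31, and the lowest were B,Pl CA for gpc1 at −0.44 and B,Pl greenhouse UV-B for gpc2 at −0.37. Of the 18 steps between neighbours in the order, all 18 were smaller than the larger SE of the neighbours in each of the 5 genes. These SEs are those of a group's difference from b,pl CA, not of the step, and the steps were not tested. Mutator LE and PE were hybridised against mutator CA, so their place rests on the mutator CA array with its conflicting dye labels. With that array turned, mutator LE stood at 0.66 for eno1, below B,Pl LE, at −0.02 for gpc3 and at 0.10 for eno2, and mutator PE at 0.25 for eno2, so that neither was lowest there. For gpc1, mutator LE was then highest at 0.41, and for gpc3, mutator PE was lowest at −0.77. With the bz2 CA array turned, bz2 PE was lowest for gpc3, at −0.52. In the order as signed by the titles, the ends were apart by 0.70 for gpc1, 0.68 for gpc2, 1.12 for gpc3, 1.26 for eno1 and 1.22 for eno2.

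Among themselves the cDNAs of a gene agreed to different degrees. Pearson correlations of the deposited centred values over the 27 arrays, most of which share the b,pl CA RNA, had a median of 0.72 over the 10 pairs of eno1 cDNAs. Over the pairs of gpc1 the median was 0.61, over those of eno2 0.53 and over those of gpc2 0.36, and the only pair of gpc3 stood at 0.46. Of 28 cDNAs, 19 correlated best on average with the other cDNAs of their own gene. These were 5 of 5 for eno1, 4 of 4 for eno2, 9 of 10 for gpc1, 1 of 2 for gpc3 and 0 of 7 for gpc2.

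A few GAPDH cDNAs ran with those of gpc3 and eno1, and they were singled out after their values were seen. For gpc2 cDNA 3640, which passed for LE, the highest correlations were 0.80 with gpc3 cDNA 6715, 0.76 with gpc1 cDNA 10447 and 0.75 with eno1 cDNA 4975. For gpc1 cDNA 10447 the correlation with gpc3 cDNA 6715 was 0.82, and its mean correlation with the other gpc1 cDNAs was 0.14. Another gpc2 cDNA, 6637, stood at 0.73 with gpc2 cDNA 3640 and at 0.69 with gpc1 cDNA 10447. By contrast gpc2 cDNAs 3817 and 7360, at 0.90 with each other, correlated at 0.82 and 0.81 with gpc1 cDNA 3805. Cross-hybridisation between gpc transcripts and errors in the old annotation were not tested.

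**Figure D5:**
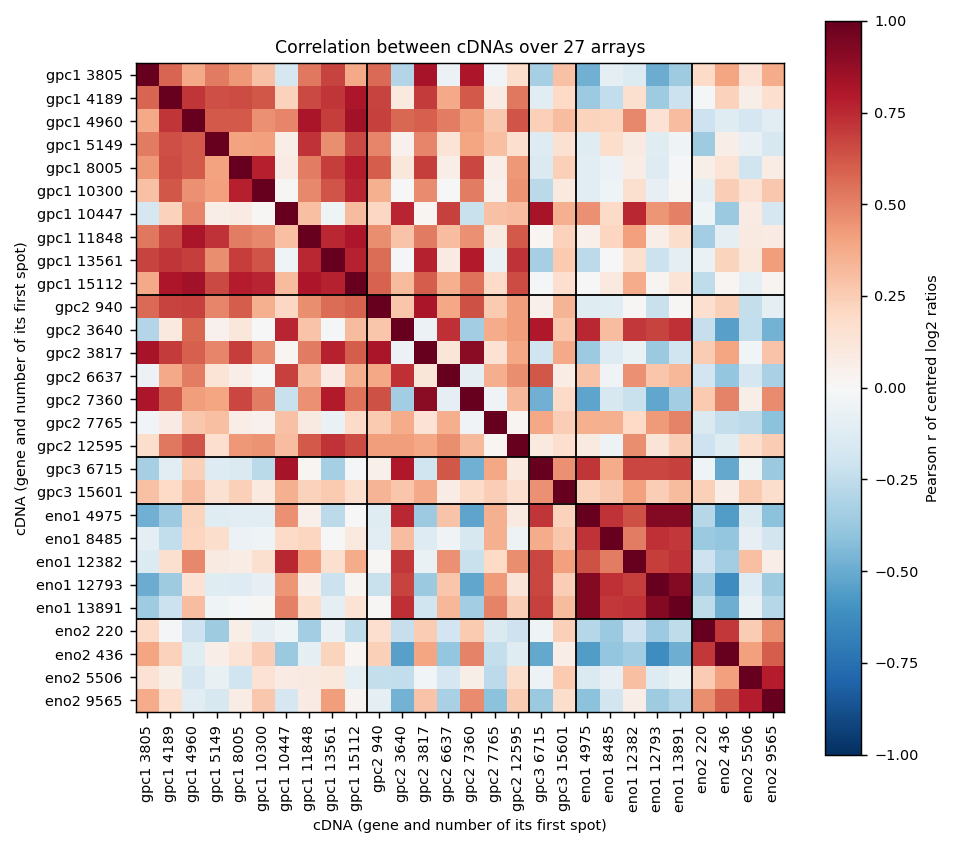
Pearson correlation between the 28 cDNAs over the 27 arrays (deposited centred log2 ratios), ordered by gene, with black lines between genes. The eno1 block is uniformly positive, with a median of 0.72, while gpc1 cDNA 10447 and gpc2 cDNA 3640 correlate at 0.82 and 0.80 with gpc3 cDNA 6715.

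Between gene means, the correlation over the 27 arrays was 0.78 for gpc1 and gpc2, 0.61 for gpc3 and eno1 and −0.35 for eno1 and eno2. The other 7 pairs lay between −0.11 and 0.39. Outside the 5 genes, the means of 105 genes with at least 2 cDNAs were compared in the same way, and their median correlation lay within 0.04 of 0 for each member. Most like eno1 were INO1 (LOC542540, also lpa1, a gene of inositol phosphate synthesis) at 0.79, LOC542159 at 0.74 and the S-adenosylmethionine synthetase gene sam2 (LOC542733) at 0.70. INO1 was also among the genes most like gpc3, at 0.62, after PP2C (LOC542176) at 0.73 and before mbd105 at 0.52. Nearest to eno2 were the translation factor genes tif-4A3 (LOC542348) at 0.77 and tif4A2 (LOC541649) at 0.75 and the glyoxalase gene glx1 (LOC542115) at 0.73. Nearest to gpc1 were the translation factor gene tif5A (LOC542601) at 0.76, the prohibitin gene phb2 (LOC541816) at 0.61 and the glutathione transferase gene gst10 (LOC541828) at 0.56. For gpc2 they were gst41 (LOC541849) at 0.58, the ribosomal protein gene rpl17 (LOC541667) at 0.50 and GRF2 (LOC100125640) at 0.49. All of these correlations share the 27 arrays and, on most of them, the b,pl CA RNA.

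Of a list of carbon metabolism genes, 8 were annotated on the array, with 27 cDNAs. They are the sucrose synthase genes sus1 and sh1, which feed sugar into glycolysis, the aldolase gene ald1, adh1 and pdc3, whose enzymes ferment pyruvate to ethanol, pdh1 and pdh2, named for pyruvate dehydrogenase, and mdh4, a malate dehydrogenase gene. In 21 comparisons 0 of these cDNAs passed with limma in either direction. For LE minus CA averaged over the genotypes 14 of 27 were positive, with a median of 0.03, and 3 had an unadjusted p under 0.05, beside 17.1% of all cDNAs. The alcohol dehydrogenase gene adh1, another gene that maize roots induce without oxygen, had 4 of 4 cDNAs positive there, with a median of 0.19. The rest of the list was mixed, with sus1 at 3 of 11 positive (median −0.10) and sh1 at 3 of 5 (median 0.07). Values were −0.05 for ald1, 0.06 for pdc3, 0.12 for pdh1 and −0.12 for mdh4, and pdh2 had a median of 0.08. For b,pl without UV-B against CA, 15 of 27 list cDNAs were positive, with a median of 0.03, and adh1 had 1 of 4 positive. Over the 27 arrays the mean of adh1 correlated at 0.44 with that of eno1 and 0.31 with that of eno2, and the mean of sus1 at −0.59 with that of gpc3.

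Dye swaps show how far arrays of a group differed. Between a Cy5 and a Cy3 array of a group against the same other RNA, after signing by dye, members had the same sign for 24 of 28 in B,Pl PE removed, 18 of 28 in B,Pl CA, 17 of 28 in bz2 LE and 16 of 28 in b,pl greenhouse UV-B. In LE and in PE of b,pl the counts were 15 of 28 and 15 of 27, for B,Pl PE 13 of 28 and for b,pl PE removed 8 of 28. Of the eno1 cDNAs, 5 of 5 agreed in bz2 LE and 1 of 5 in b,pl LE. The eno2 cDNAs agreed for 4 of 4 in b,pl LE and 0 of 4 in B,Pl CA. Over all cDNAs the share with the same sign was 57.7% in B,Pl PE removed, 50.0% in B,Pl CA, 72.7% in bz2 LE and 64.1% in b,pl greenhouse UV-B. It was 58.1% in b,pl LE, 45.8% in b,pl PE, 24.8% in B,Pl PE and 44.2% in b,pl PE removed. The median residual variance of the fit was 0.0799 for the members and 0.168 for all cDNAs. Marker genes of mesophyll, bundle sheath and seed were not among the annotated cDNAs, and ratios do not give a level, so the labelled tissue could not be checked. Over the 21 comparisons, medians of 15 cDNAs of 3 dividing-cell markers ran from −0.21 to 0.14, and those of 3 cDNAs of an epidermis marker from −0.35 for LE in B,Pl to 0.89 for PE in b,pl. For LE averaged over the genotypes they were −0.02 and −0.23, and for b,pl without UV-B against CA −0.07 and −0.11. Their part in the results was not tested.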

How the data were processed

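RNA of adult maize leaves was measured on 27 dual-colour cDNA arrays. For each of 16200 spots the deposited value is a log2 ratio between channels, with the base inferred from the values and the normalization and software of the authors not given in the sources used here. Here, the 3 spots of a cDNA were averaged, each array was centred on its median, and cDNAs with a value on at least 14 arrays were kept. A model with 18 group terms relative to b,pl under CA and 1 dye term, which signs each array by the dye of its group, was fitted with limma 3.58.1 in R 4.3.3, with 8 residual degrees of freedom and moderated variances. The b,pl CA group has no arrays of its own, so its own spread is left out. In 21 comparisons and 2 F tests, p-values were adjusted by Benjamini-Hochberg over all cDNAs, with a threshold of 0.05. The method was tested on simulated data. Gene symbols come from the platform annotation, which can be old. The text names every member cDNA that passed and otherwise the one with the smallest p in each comparison, and other cDNAs it names were chosen after their values were seen. Gene likeness is a Pearson correlation of the gene means of the centred deposited values. Members and gene lists were chosen with earlier results of these data known. The alternatives were other centring and scaling, spot medians, complete cDNAs, no dye term, other directions and leaving out arrays. Precision is limited by the number of arrays.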

Additional observations from a re-analysis of the deposited data

How the results depend on the processing

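Of 32 alternatives, 17 leave out 1 array each. The number of member cDNAs called for LE minus CA averaged over the genotypes, 3, became 0 without centring, without B,Pl CA replicate 2, b,pl LE replicate 2 and b,pl PE replicate 2 (the arrays missing most values), and with values taken as group over other channel. It became 1 with b,pl greenhouse UV-B replicate 2 turned and ran from 0 to 3 with single arrays left out. The highest count was 4, with scaled arrays, where the count over all cDNAs is not given here. Over all cDNAs the count of 69 became 2, 0, 3 and 19 in the first 4 of these settings. The 1 call for LE in bz2 became 0 without centring, with scaled arrays, without those 3 arrays, as group over other channel, without the dye term, with b,pl PE replicate 2 or b,pl greenhouse UV-B replicate 2 turned, and with each single array left out (0 to 0). Over all cDNAs the count of 30 for LE in bz2 became 6 without centring and 12 with scaled arrays. It became 16 without those 3 arrays, 14 as group over other channel and 25 without the dye term. With b,pl PE replicate 2 turned it was 33, and with b,pl greenhouse UV-B replicate 2 turned 23. For LE in B,Pl, 0 calls became 1 with scaled arrays and with b,pl PE removed replicate 1 or 2 turned. The count of 13 over all cDNAs became 48 with scaled arrays and 16 with either of these 2 arrays turned.

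Read as group over other channel, 41 of 105 gene medians changed sign. Among named cDNAs, this reading gave −0.35 for gpc3 cDNA 6715 (LE, b,pl), −0.18 for eno1 cDNA 4975 (LE, bz2), 0.12 for gpc2 cDNA 12595 (PE, b,pl), −0.34 for eno2 cDNA 436 (PE removed, b,pl), 0.16 for eno1 cDNA 13891 (PE removed, B,Pl) and 0.0355 for gpc1 cDNA 4960 (B,Pl under CA). Turned arrays gave 0.23 for gpc2 cDNA 12595 (b,pl PE replicate 2), −0.34 for eno2 cDNA 436 (b,pl PE removed replicate 1), 0.0803 for gpc2 cDNA 6637 (b,pl greenhouse UV-B replicate 2), 0.37 for eno1 cDNA 8485 (bz2 CA) and −0.88 for gpc3 cDNA 6715 (mutator CA). Without centring the median of all cDNAs shifted by −0.44 to 0.48, and 20 gene medians changed sign. Scaled arrays changed 7 and omission of the dye term 8. The cause was not tested. No paired analysis was possible because replicates were numbered in accession order only. The median residual variance was 0.168 as signed by dye and 0.216 as group over other channel. It was lower with some arrays turned: 0.146 for B,Pl PE replicate 3, 0.160 for either b,pl PE removed array and 0.162 for replicate 2 of PE in b,pl or B,Pl. With b,pl greenhouse UV-B replicate 2 turned it was higher, 0.204, and with the CA array of bz2 or mutator turned it stayed at 0.168. Which direction is right was not tested.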
